A study of Mus musculus with 9 samples.

Results

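Sult1e1, Cyp2b9, Cyp2b13, Cyp2a22, Slco1a1 and Elovl3 are liver genes whose expression in the mouse depends on whether growth hormone reaches the liver in pulses or continuously. These 6 genes, of 19938 measured in mouse liver, were picked from the array values themselves, for their very large shifts in ob/ob mice, so their levels in ob/ob against lean mice are described below without a test. The OB-TUDCA group consisted of male ob/ob mice (strain B6.V-Lepob/J) that were gavaged with taurine-conjugated ursodeoxycholic acid (TUDCA), a bile acid, at 500 mg/kg 2 times a day for 3 weeks. The OB-control group consisted of male ob/ob mice of the same strain that received tap water by gavage on the same schedule, and the N-control group of wildtype male C57BL/6J mice, obtained as control littermates, that received tap water likewise. All mice were 6 weeks old at the start, ate normal chow freely and were killed after 8 h of fasting, so that fasting and gavage were common to the 3 groups. The ob/ob mice lack working leptin in the whole body from birth, and the wildtype mice carry the allele intact, so that leptin, body fat and their consequences cannot be told apart between these genotypes. Each group had 3 Affymetrix Mouse Gene 1.0 ST arrays of liver RNA. Each array was taken as 1 mouse, since its label reads biological replicate. The study's methods give 6 mice per group and do not say which of them the arrays came from.

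Male mice release growth hormone from the pituitary in pulses with gaps between them, whereas females release it more evenly. In the hepatocyte the hormone binds its receptor Ghr, which activates the kinase Jak2 and the transcription factor Stat5b; pulses keep male-biased genes active, and the lack of pulses lets female-biased genes rise. Of the 6 genes, Cyp2b9, Cyp2b13 and Cyp2a22 are female-biased, Sult1e1 is low in liver of healthy adult males, and Slco1a1 and Elovl3 are male-biased.

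The deposited values are log2 signals made by the authors with RMA, in which 1 unit is a doubling. The array medians ranged from 4.50 to 4.58, and Pearson r across all probe sets was 0.981 to 0.990 over the 9 pairs of arrays of the same group. The mean of 7 hepatocyte markers was 12.6 to 12.8 on every array, 3 Y-linked genes averaged 6.95 to 7.53 and Xist was at 2.60 to 3.25, as in liver of male mice. The mean of 16 pancreatic acinar markers was 4.09 to 4.37 on OB-TUDCA arrays, 3.98 to 4.07 on OB-control arrays and 3.89 to 10.6 on N-control arrays, the high value being that of N-control replicate 2. The mean of 5 adipocyte markers stayed within 3.31 to 3.50, and that of 6 leukocyte markers was 5.68 to 6.20, 5.84 to 5.89 and 5.71 to 5.95 in OB-TUDCA, OB-control and N-control mice. In such bulk tissue, fewer cells of a type and less RNA per cell cannot be told apart. The table holds no detection call, so a signal near 3 may lie at background, and folds that start there may be understated.

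Sult1e1, the estrogen sulfotransferase, which inactivates estrogens by sulfation, had the greatest positive difference of the 19938 genes in OB-control against N-control mice. Its log2 signal was 8.90, 7.42 and 7.08 on the OB-TUDCA arrays, 8.42, 10.22 and 8.97 on the OB-control arrays, and 2.69, 2.92 and 3.17 on the N-control arrays. The 6 ob/ob arrays lay far above the lean arrays, while OB-TUDCA and OB-control arrays overlapped, since OB-TUDCA replicate 1 was above OB-control replicate 1. The means were 7.80 ± 0.97 in OB-TUDCA, 9.20 ± 0.92 in OB-control and 2.93 ± 0.24 in N-control mice (SD, n = 3 each). OB-control exceeded N-control by 6.28 on the log2 scale (SE 0.52), a 77.4-fold difference, and single pairs of arrays gave 38.0- to 185-fold. OB-TUDCA exceeded N-control by 4.87, or 29.2-fold. The spread among ob/ob mice was wide, with 1.82 log2 units between the highest and the lowest array of OB-TUDCA, 1.80 in OB-control and 0.49 in N-control mice.

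**Figure D1:**
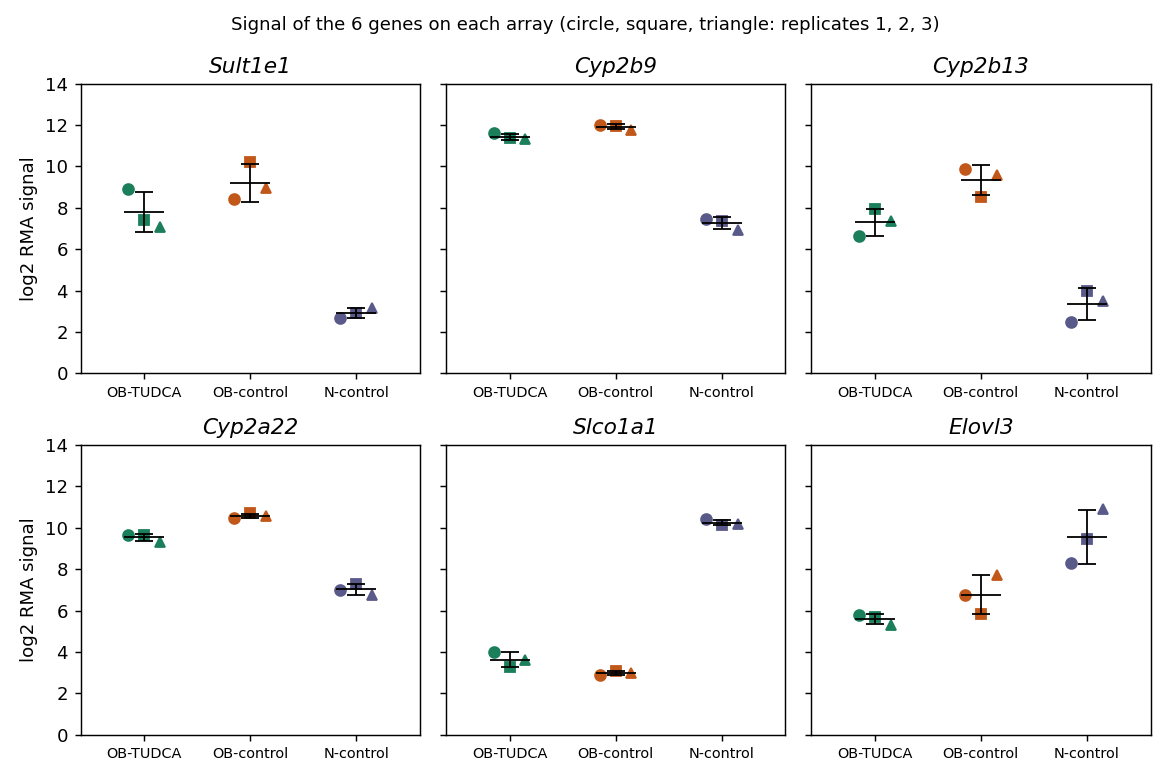
Log2 RMA signal (vertical axis) of each of the 6 genes on every array, with OB-TUDCA, OB-control and N-control from left to right. Circles, squares and triangles are replicates 1, 2 and 3, the long line is the mean of 3 arrays and the bar the SD. Sult1e1, Cyp2b9, Cyp2b13 and Cyp2a22 sit high on the 6 ob/ob arrays, Slco1a1 sits at 2.87 to 4.00 there against 10.15 to 10.40 on N-control arrays, and Elovl3 differs most among the N-control arrays.

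Cyp2b9, Cyp2b13 and Cyp2a22 are cytochrome P450 enzymes of the endoplasmic reticulum. The Cyp2b enzymes oxidize steroids and foreign compounds, and Cyp2a22 belongs to the Cyp2a subfamily. They lie on mouse chromosome 7 in the order Cyp2b13, Cyp2b9, Cyp2a22, with Cyp2b10, another P450 gene, on the far side of Cyp2b13 (gene order from RefSeq, GRCm38.p6). The promoters of Cyp2b9 and Cyp2b13 are shown because these neighbours are near copies that both lay higher in ob/ob mice. OB-control exceeded N-control by 4.67 for Cyp2b9 and 5.99 for Cyp2b13. The Cyp2b10 promoter is shown because Cyp2b10 is the adjacent gene with a smaller shift. Each is the 250 bases before the gene's start on the + strand, 5′ to 3′, from RefSeq (GRCm38.p6), at chr7:26173159-26173408 for Cyp2b9, chr7:26061245-26061494 for Cyp2b13 and chr7:25897408-25897657 for Cyp2b10, and capitals mark the bases at which Cyp2b9 and Cyp2b13 differ.
Cyp2b9: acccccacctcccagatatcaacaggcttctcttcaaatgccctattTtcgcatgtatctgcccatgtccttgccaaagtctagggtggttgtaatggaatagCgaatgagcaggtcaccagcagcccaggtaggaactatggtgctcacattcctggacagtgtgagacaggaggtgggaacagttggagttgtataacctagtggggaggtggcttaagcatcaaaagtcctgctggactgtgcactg
Cyp2b13: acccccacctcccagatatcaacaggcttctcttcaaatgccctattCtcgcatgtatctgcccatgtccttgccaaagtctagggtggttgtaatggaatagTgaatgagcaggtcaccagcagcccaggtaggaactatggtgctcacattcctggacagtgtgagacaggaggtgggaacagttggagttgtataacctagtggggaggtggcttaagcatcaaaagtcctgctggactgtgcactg
Cyp2b10: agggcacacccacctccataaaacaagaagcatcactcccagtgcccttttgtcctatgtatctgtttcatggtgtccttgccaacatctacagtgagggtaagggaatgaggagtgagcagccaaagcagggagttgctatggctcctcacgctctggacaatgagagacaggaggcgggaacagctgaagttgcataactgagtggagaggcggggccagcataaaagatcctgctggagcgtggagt
The Cyp2b9 and Cyp2b13 windows had the same base at 248 of 250 positions (99.2%). They differed by T48C and C104T (the Cyp2b9 base, the position counted from 1 at the 5′ end of the window, and the Cyp2b13 base), which lie 203 and 147 bases before the start. Each was identical to the Cyp2b10 window in 70% of 260 aligned columns, whereas the other pairs among the 5 of the 6 genes found in the promoter table were identical in 44.2% to 50.5% of aligned columns. The letters TTCNNNGAA, to which STAT5 proteins bind, and ATTGAT and ATCGAT, to which Onecut1 binds, were searched on both strands, and none of the 3 occurred in the windows of Sult1e1, Cyp2b9, Cyp2b13, Cyp2a22, Slco1a1 or Cyp2b10. Over 32851 mouse promoter windows of the same length, TTCNNNGAA occurred in 7.02%, ATTGAT in 6.72% and ATCGAT in 0.728%. As near copies can bind each other's probes, the signals of Cyp2b9 and Cyp2b13 may not be fully separate, although each had 1 probe set that the annotation shared with no other symbol.

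Cyp2b13 had a log2 signal of 6.63, 7.93 and 7.37 on the OB-TUDCA arrays, 9.87, 8.53 and 9.60 on the OB-control arrays, and 2.50, 4.01 and 3.51 on the N-control arrays. No array of a group entered the range of another group, and OB-TUDCA lay between OB-control and N-control throughout. The means were 7.31 ± 0.65, 9.33 ± 0.71 and 3.34 ± 0.77 in OB-TUDCA, OB-control and N-control mice (SD, n = 3 each). OB-control exceeded N-control by 5.99 (SE 0.47), or 63.7-fold, the positive difference next in size after that of Sult1e1, and OB-TUDCA exceeded N-control by 3.97, or 15.7-fold.

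Cyp2b9 had a log2 signal of 11.60, 11.40 and 11.32 on the OB-TUDCA arrays, 12.00, 11.96 and 11.78 on the OB-control arrays, and 7.46, 7.36 and 6.92 on the N-control arrays. Its arrays agreed closely within groups, and the 3 groups did not overlap. The means were 11.44 ± 0.15, 11.92 ± 0.12 and 7.25 ± 0.29 in OB-TUDCA, OB-control and N-control mice (SD, n = 3 each). OB-control exceeded N-control by 4.67 (SE 0.14), or 25.4-fold, and OB-TUDCA exceeded N-control by 4.19, or 18.3-fold. Within groups, Cyp2b13 varied over 1.30, 1.35 and 1.50 log2 units within OB-TUDCA, OB-control and N-control mice, and Cyp2b9 over 0.28, 0.22 and 0.54.

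Cyp2a22 had a log2 signal of 9.64, 9.64 and 9.33 on the OB-TUDCA arrays, 10.47, 10.69 and 10.56 on the OB-control arrays, and 7.02, 7.31 and 6.77 on the N-control arrays. The 3 groups again followed each other without overlap, OB-control highest and N-control lowest. The means were 9.54 ± 0.18, 10.58 ± 0.11 and 7.03 ± 0.27 in OB-TUDCA, OB-control and N-control mice (SD, n = 3 each). OB-control exceeded N-control by 3.54 (SE 0.14), or 11.7-fold, and OB-TUDCA exceeded N-control by 2.50, or 5.67-fold.

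Slco1a1, an organic anion transporter of the hepatocyte membrane that takes up bile acids, steroid conjugates and drugs, had the greatest difference of any gene in OB-control against N-control mice. Its log2 signal was 4.00, 3.28 and 3.62 on the OB-TUDCA arrays, 2.87, 3.09 and 2.98 on the OB-control arrays, and 10.40, 10.15 and 10.19 on the N-control arrays. The lean arrays were high and alike, and the ob/ob arrays were near the low end of the scale, with the OB-TUDCA arrays above the OB-control arrays. The means were 3.63 ± 0.36, 2.98 ± 0.11 and 10.25 ± 0.14 in OB-TUDCA, OB-control and N-control mice (SD, n = 3 each). The difference of OB-control from N-control was −7.27 (SE 0.16), 154-fold lower, with 133- to 185-fold over single pairs of arrays, and that of OB-TUDCA from N-control was −6.62, 98.1-fold lower.

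Elovl3, an elongase of very long chain fatty acids, was the most variable of the 6 genes in lean mice. Its log2 signal was 5.78, 5.71 and 5.32 on the OB-TUDCA arrays, 6.74, 5.85 and 7.72 on the OB-control arrays, and 8.29, 9.45 and 10.93 on the N-control arrays. The groups did not overlap, but OB-control replicate 2 lay 0.07 above OB-TUDCA replicate 1, and OB-control replicate 3 lay 0.57 below N-control replicate 1. The means were 5.60 ± 0.25, 6.77 ± 0.94 and 9.56 ± 1.32 in OB-TUDCA, OB-control and N-control mice (SD, n = 3 each). The difference of OB-control from N-control was −2.79 (SE 0.62), 6.92-fold lower, with 1.49- to 33.9-fold over single pairs of arrays. It was −2.10 without N-control replicate 3, and −3.42 if N-control replicate 1 was left out instead. The difference of OB-TUDCA from N-control was −3.96, 15.5-fold lower. Unlike the other 5 genes, Elovl3 was farther from N-control in OB-TUDCA mice than in their OB-control counterparts, and the difference between these ob/ob groups did not pass the test below.

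Among the 19938 genes, 0.456% rose and 0.492% fell in OB-control against N-control mice at an adjusted p under 0.05 in limma, given only as background, since this comparison chose the genes. By the size of the difference, Slco1a1, Sult1e1, Cyp2b13, Cyp2b9, Cyp2a22 and Elovl3 held ranks 1, 2, 3, 5, 6 and 12. These ranks restate how the genes were chosen. Leaving out N-control replicate 2, which carried the acinar transcripts, gave 6.27 for Sult1e1, 6.33 for Cyp2b13, 4.72 for Cyp2b9, 3.68 for Cyp2a22, −7.32 for Slco1a1 and −2.84 for Elovl3.

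Whether TUDCA changed these genes within ob/ob mice was asked by comparing OB-TUDCA with OB-control. The genes were chosen for shifts in ob/ob against lean mice rather than by this comparison, but it shares the OB-control arrays with that choice. The OB-TUDCA arrays are of ob/ob mice too and may also have entered the choice. Genes chosen for extreme values on shared arrays can lie less far from N-control in the other group through that choice alone. Cyp2a22 fell in OB-TUDCA mice, by 1.04 on the log2 scale (SE 0.14, 95% confidence interval −1.36 to −0.72), which is 2.06-fold lower, with an adjusted p of 0.0295 in limma. The other 5 genes did not pass, so that 1 of 6 was called, against a background of 0.301% of all genes in either direction. The call of Cyp2a22 was lost without OB-TUDCA replicate 2 or 3 (adjusted p 0.111 and 0.101), without OB-control replicate 1, 2 or 3 (0.125, 0.0601 and 0.0753) and without N-control replicate 1 or 2 (0.0605 and 0.0545), while its difference stayed between −1.09 and −0.94. Over all alternatives tried its adjusted p ranged from 0.0166 to 0.394 in limma and the unmoderated test.

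Of the genes that did not pass, Cyp2b13 differed by −2.02 between OB-TUDCA and OB-control mice (SE 0.47, interval −3.08 to −0.97, adjusted p 0.109 in limma), 4.06-fold lower. Sult1e1 differed by −1.40 (SE 0.52, interval −2.57 to −0.24, adjusted p 0.310 in limma). Cyp2b9 differed by −0.48 (SE 0.14, interval −0.80 to −0.15, adjusted p 0.206 in limma). Together with Cyp2a22, these genes had lower means in OB-TUDCA mice, Cyp2b13 by the greatest margin and Cyp2b9 by the smallest. Slco1a1 differed by 0.65 (SE 0.16, interval 0.29 to 1.02, adjusted p 0.128 in limma), 1.57-fold higher, and Elovl3 by −1.17 (SE 0.62, interval −2.57 to 0.24, adjusted p 0.507 in limma). The Slco1a1 signals of both groups, 2.87 to 4.00, lay near the level that may be background. The interval of Elovl3 spans 0, and those of the other 5 genes do not, but intervals of single genes take no account of the number of genes tested. The unadjusted p was below 0.05 in 5 of the 6, and an unmoderated test per gene with the same adjustment called 0 of 6.

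The arrays of OB-TUDCA and OB-control mice did not overlap for Cyp2b9, Cyp2b13, Cyp2a22, Slco1a1 and Elovl3, 5 of the 6 genes, against 13.8% of all genes. The median difference of the 6 genes was −1.10, against 0.01 over all genes. It mixes genes chosen as higher with genes chosen as lower in ob/ob mice. As the choice used the OB-control arrays and perhaps the OB-TUDCA arrays, all genes are not a like background for this median, the overlap or the count of calls above. From N-control mice, OB-TUDCA mice differed by 2.50 for Cyp2a22, 3.97 for Cyp2b13, 4.19 for Cyp2b9 and 4.87 for Sult1e1. The differences were −6.62 for Slco1a1 and −3.96 for Elovl3, the latter against −2.79 in OB-control mice. Only Cyp2a22 had passed the test between the ob/ob groups. No OB-TUDCA array of any of the 6 genes entered the N-control range. The nearest pair was in Cyp2a22, 4.07-fold apart. As the genes were chosen for large shifts in ob/ob mice, this lack of overlap restates that choice in part. The share of all genes without overlap between OB-TUDCA and N-control was not computed.

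**Figure D2:**
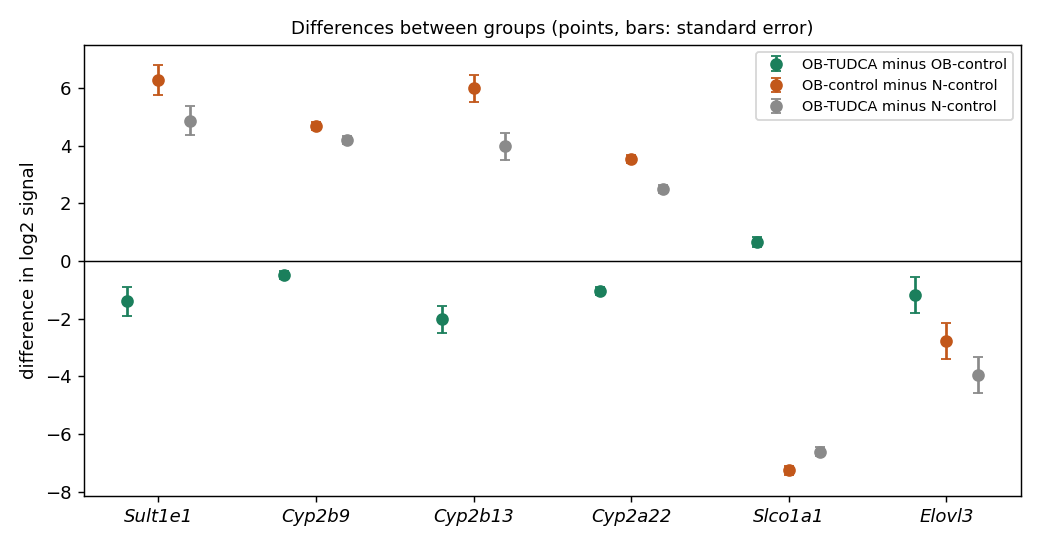
Differences in log2 signal (vertical axis) of the 6 genes for OB-TUDCA minus OB-control, OB-control minus N-control and OB-TUDCA minus N-control; points are fitted differences and bars their standard errors. The difference between OB-TUDCA and OB-control mice runs from −2.02 for Cyp2b13 to 0.65 for Slco1a1 and for each gene is smaller than those from N-control mice, which reach 6.28 for Sult1e1 and −7.27 for Slco1a1.

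Other male-biased liver genes were lower in untreated ob/ob mice. Of 32 listed, 26 were measured, and in OB-control against N-control mice 14 fell, 0 rose and 12 did not pass the test, against the background of 0.492% lower and 0.456% higher among all genes. The list was written from general knowledge of mouse liver, with earlier results of these data known. The median difference of the list was −1.30, against 0.02 over all genes, and single genes ranged from −5.90 to 0.65. Hsd3b5, a steroid dehydrogenase of male mouse liver, had a log2 signal of 2.92, 3.25 and 2.63 on the OB-TUDCA arrays, 2.67, 2.57 and 2.72 on the OB-control arrays, and 8.73, 8.73 and 8.20 on the N-control arrays. It was thus low on all 6 ob/ob arrays with no overlap with the lean ones, and it fell by 5.90 in OB-control mice (SE 0.18, adjusted p 4.18e-07 in limma). Cyp7b1, an oxysterol hydroxylase of bile acid synthesis, fell by 3.22, with means of 7.10 ± 0.33 in OB-control and 10.32 ± 0.36 in N-control mice (SD, n = 3 each). C6, a complement component, fell by 2.81 and Egfr, the receptor for epidermal growth factor, by 2.45. Mup3 and Mup21, which encode major urinary proteins, pheromone carriers made in liver, both fell by 2.13; they belong to a family of near copies, so their signals may include relatives. Mup21 (adjusted p 0.0269 in limma) lost its call without each of 5 arrays, OB-control replicates 1 and 3 and N-control replicates 1, 2 and 3, with adjusted p between 0.0628 and 0.105.

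Female-biased liver genes moved the other way. Of 32 listed, 23 were measured, and in OB-control against N-control mice 9 rose, 0 fell and 14 did not pass, with a median difference of 0.85 and a range of −0.36 to 2.21. This list, too, was written with earlier results of these data known. Slc22a27, an organic anion transporter, rose by 2.21, with means of 8.60 ± 0.58 in OB-control and 6.39 ± 0.20 in N-control mice (SD, n = 3 each). Cyp17a1, a steroid hydroxylase and lyase, rose by 2.14, with means of 10.72 ± 0.21 in OB-control and 8.58 ± 0.10 in N-control mice. Cyp2b10, the P450 next to Cyp2b13, rose by 2.05, Apoa4, an apolipoprotein, by 2.03, Cd36, which takes up fatty acids, by 1.70, and Sult3a1, a sulfotransferase, by 1.62. Sult3a1 (adjusted p 0.0422 in limma) kept its call only without OB-control replicate 1 among the 9 arrays left out in turn, and Apoa4 (0.0346) lost it without OB-TUDCA replicate 2 or 3, OB-control replicate 1 or 3, or any N-control array. Slc22a27 (0.00862) lost it without OB-control replicate 1 or N-control replicate 2. Sult1e1, Cyp2b9, Cyp2b13 and Cyp2a22, at 3.54 to 6.28, lay above every measured gene of this list, as their choice for large shifts implies.

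**Figure D3:**
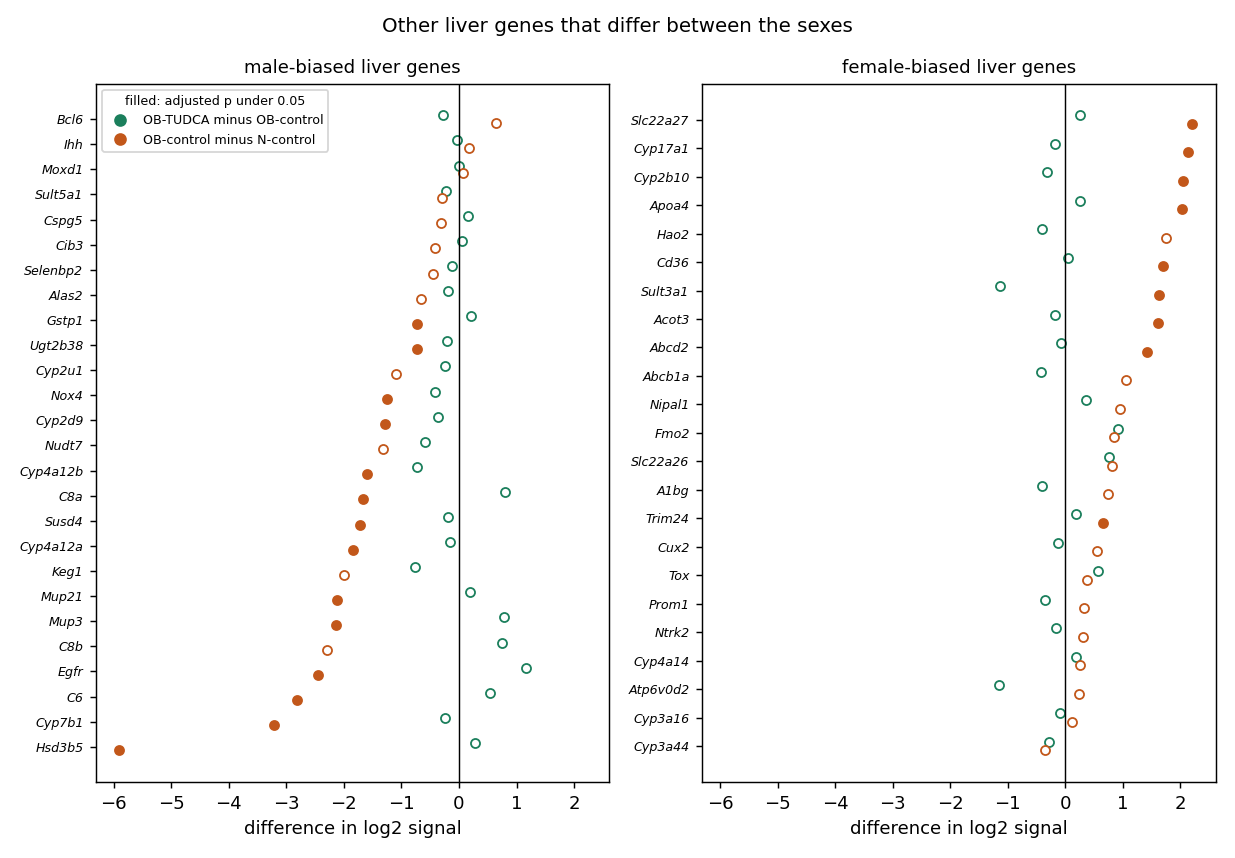
Differences in log2 signal (horizontal axis) of the 26 measured male-biased genes (left) and 23 measured female-biased genes (right), sorted by OB-control minus N-control; filled circles have an adjusted p under 0.05. OB-control minus N-control runs to −5.90 for Hsd3b5 among male-biased genes and to 2.21 for Slc22a27 among female-biased genes, and no circle of OB-TUDCA minus OB-control is filled.

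These counts depended on single arrays. Of male-biased genes, 8 fell without OB-control replicate 1, OB-control replicate 3, N-control replicate 1 or N-control replicate 2; the count was 9 when N-control replicate 3 was left out. Of female-biased genes, 3 rose without N-control replicate 2, 4 without OB-control replicate 1 or N-control replicate 1, and 5 without OB-TUDCA replicate 2 or OB-control replicate 3. At an unadjusted p under 0.05, 21 male-biased genes were lower and 0 higher, and 16 female-biased genes were higher and 1 lower.

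In OB-TUDCA against OB-control mice, 0 of 26 male-biased and 0 of 23 female-biased genes passed the test in limma. At an unadjusted p under 0.05, 4 male-biased genes were higher and 2 lower, and 3 female-biased genes were higher and 3 lower, and the unmoderated test called 0 in either list. The list medians were −0.14 and −0.13, close to the 0.01 of all genes. Egfr had the greatest positive difference of the male-biased genes, 1.16 (adjusted p 0.114 in limma), and Sult3a1 differed by −1.13 (0.146). In OB-TUDCA against N-control mice, 16 male-biased genes fell and 0 rose, and 12 female-biased genes rose and 0 fell, where 1.89% of all genes fell and 1.35% rose. The male-biased count was 9 without N-control replicate 2, and the female-biased count was 6 without OB-TUDCA replicate 2 and 7 without N-control replicate 1 or 2.

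No gene of the growth hormone relay passed the test between these untreated groups. Of 11 listed and measured, from the receptor through Jak2, Stat5a and Stat5b to feedback inhibitors, Igf1 and the liver factors Onecut1 and Hnf4a, 0 passed the test in OB-control against N-control mice in limma, 4 were lower and 0 higher at an unadjusted p under 0.05, and the unmoderated test called 0. Their differences ran from −0.91 to 0.17 with a median of −0.35, the lowest being that of Onecut1 (adjusted p 0.402 in limma), named after its value was seen. Ghr, the growth hormone receptor, averaged 10.38 ± 0.17 in OB-control and 10.74 ± 0.02 in N-control mice (SD, n = 3 each), a difference of −0.35 (adjusted p 0.225 in limma). Igf1, the growth factor that growth hormone induces in liver, differed by −0.41 (adjusted p 0.185 in limma), and passed without OB-control replicate 2, at −0.56 (0.0269). Hnf4a, a transcription factor of the hepatocyte, differed by 0.17. In OB-TUDCA against N-control mice Ghr fell by 0.52 (adjusted p 0.0411 in limma) and Hnf4a rose by 0.58 (0.0451). Ghr lost its call without OB-TUDCA replicate 2 or 3, OB-control replicate 1 or any N-control array, and Hnf4a without any OB-TUDCA array, OB-control replicate 1 or 3, or N-control replicate 1 or 2.

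Cyp2b genes also respond to Car, a nuclear receptor for foreign compounds, and to its relative Pxr. Of 14 listed genes, these receptors and their usual targets, 12 were measured. In OB-control against N-control mice Cyp2b10, already counted as female-biased, rose, 0 fell and 11 did not pass. Among all genes 0.456% rose and 0.492% fell. At an unadjusted p under 0.05, 3 of the list were higher and 2 lower, and the unmoderated test called 0. The list's differences ran from −0.69 to 2.05 with a median of 0.21. Of 6 hormone receptors listed, 4 were measured and 0 passed in limma in this comparison, with 1 higher at an unadjusted p under 0.05 and 0 by the unmoderated test. Among those, Esr1, the estrogen receptor alpha, differed by 0.80 (adjusted p 0.148 in limma), Insr, the insulin receptor, by −0.23 and Nr3c1, the glucocorticoid receptor, by −0.12.

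Among listed relatives of the 6 genes, 2 passed the test in OB-control against N-control mice. Of 11 other sulfotransferases listed, 9 were measured and 1 rose, Sult3a1. The list left out 6 measured sulfotransferases, which were looked at later. Of these Sult2a8, named after its value was seen, fell by 2.39, with means of 9.09 ± 0.31 in OB-control and 11.47 ± 0.09 in N-control mice (SD, n = 3 each, adjusted p 0.000621 in limma), and the other 5 lay between −0.14 and 0.59 and did not pass. Of the other genes of the Cyp2a and Cyp2b family and their cluster, 8 of 10 were measured and 1 rose, Cyp2b10. None of 14 other Slco transporters and none of 6 other elongases passed in limma. Their differences ran from −0.64 to 0.27 and from −0.15 to 0.85, with 1 Slco gene higher and 3 lower and 1 elongase higher at an unadjusted p under 0.05, and the unmoderated test called 0 in both. Slco1b2, Slco1a4 and Slco2b1, transporters with high signal in liver, differed by −0.53, −0.64 and 0.27, against −7.27 for Slco1a1. Slco1b2 passed the test in 3 of 18 alternatives. These were without OB-TUDCA replicate 1 (adjusted p 0.0231 in limma), with array weights (0.0366) and with only the arrays compared (0.04998). Elovl5, Elovl2 and Elovl6, elongases of polyunsaturated and saturated fatty acids, differed by 0.20, −0.15 and 0.85, against −2.79 for Elovl3. The difference of Elovl5 turned to −0.11 without OB-control replicate 3.

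**Figure D4:**
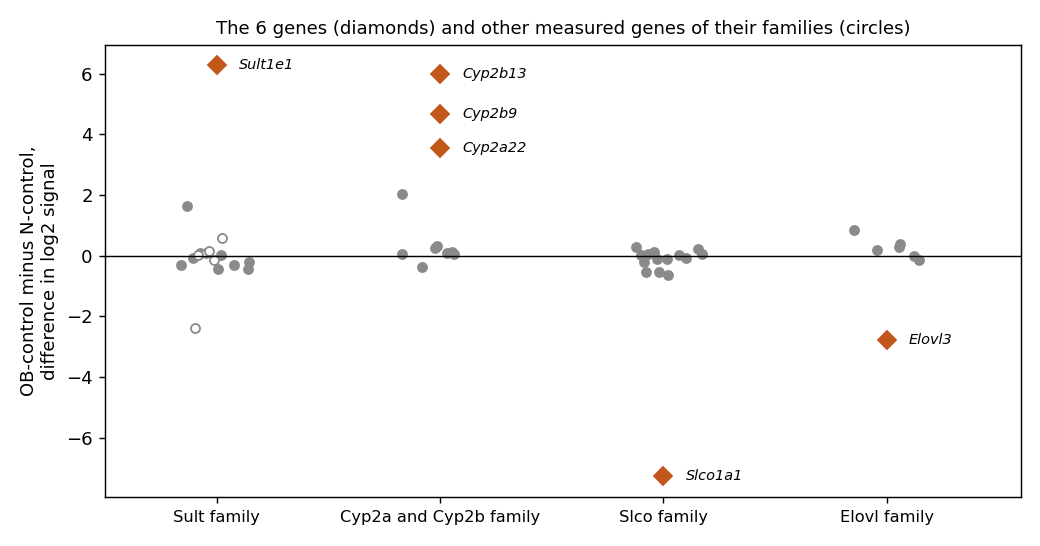
OB-control minus N-control differences in log2 signal (vertical axis) of the 6 genes (diamonds) and of other measured genes of their families (circles; open ones are the sulfotransferases left out of the list), sorted into Sult, Cyp2a and Cyp2b, Slco and Elovl families. The circle at 1.62 is Sult3a1, that at 2.05 is Cyp2b10 and the open circle at −2.39 is Sult2a8, and the other circles lie between −0.64 and 0.85.

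Between OB-TUDCA and OB-control mice, Cyp2a12 fell by 0.45 (adjusted p 0.0386 in limma), the only relative that passed in that comparison; it lies beside Cyp2a22 and was singled out after its value was seen. Its call was lost without OB-TUDCA replicate 2 or 3 or any OB-control or N-control array. In OB-TUDCA against N-control mice Slco1b2 fell by 0.77 (adjusted p 0.0101 in limma), a call lost without OB-TUDCA replicate 2 (0.0528).

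Apart from Cyp2b10 beside Cyp2b13, the measured chromosomal neighbours examined had small differences. Cyp2a4 and Cyp2a5, of the Cyp2a and Cyp2b list, had no probe set of their own and were not examined. The values may therefore not cover every gene of the cluster. Between Cyp2b9 and Cyp2a22 lie 7 measured genes, whose differences between OB-control and N-control mice ran from −0.36 to 0.33. None of these passed in limma, 2 had an unadjusted p under 0.05 and the unmoderated test called 0. Sult1d1, the measured neighbour of Sult1e1 on chromosome 5, differed by −0.44 (adjusted p 0.150 in limma), and Slco1a4 beside Slco1a1 on chromosome 6 by −0.64 (0.307). Beside Elovl3 on chromosome 19, Nolc1 and Pitx3 differed by −0.28 and 0.22. These neighbours outside the family lists were named for their position.

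The genes most like each of the 6 over the 9 arrays were found by the root mean square difference of log2 signals after each gene was centred on its own mean, in which 0 is an identical profile. The measure depends on the size of a shift, and the 6 genes were chosen for large shifts. Their nearness to each other therefore follows in part from that choice. The genes nearest to Sult1e1 were Cyp2b9 (0.914), Cyp2b13 (1.16) and Cyp2a22 (1.35). Nearest to Cyp2b13 were Cyp2b9 (0.951), Sult1e1 (1.16) and Cyp2a22 (1.17). Nearest to Cyp2b9 were Cyp2a22 (0.715), Sult1e1 (0.914) and Ly6d (0.930). Cyp2a22, whose shift was smaller, was nearest to Cyp17a1 (0.606), Lrtm1 (0.692) and Cyp2b10 (0.709). Nearest to Slco1a1 was Hsd3b5 (0.658), followed at a distance by Cyp7b1 (1.76) and Igfbp2 (1.83). Nearest to Elovl3 were Cyp7b1 (0.829), Sult2a8 (0.909) and Cyp4a12b (0.987). The 9 arrays share the 3 groups, and no test was made of these distances.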

How the data were processed

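Affymetrix Mouse Gene 1.0 ST arrays were hybridized with liver RNA of 9 mice, 3 each for OB-TUDCA, OB-control and N-control. The authors corrected the background, normalized the arrays to a common distribution and summarized the probes with RMA in Affymetrix Expression Console (version not given in the sources used here), and the deposited values are the resulting log2 signals, used without further normalization. RMA compresses differences of dim and of very bright probe sets. Arrays carry no read depth, and their number limits the precision. Of 35556 probe sets, 21789 with exactly 1 gene symbol were averaged per symbol to 19938 genes (999 with more than 1 probe set), while 1621 with several symbols and 12146 unnamed were left out. No filter on signal was applied. Listed genes called not measured lacked a probe set of their own.

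Groups were compared two-sided with limma 3.58.1 in R 4.3.3, in a fit of all 9 arrays with 3 group means, without a trend (6 residual and 3.33 prior degrees of freedom), and p-values were adjusted over all 19938 genes by the Benjamini-Hochberg method, with a threshold of 0.05. Replicates were taken as separate mice, since the labels call them biological replicates. An exact permutation test of 3 against 3 arrays could not give a p below 0.1. The 6 genes and the gene lists were chosen with earlier results of these data known. Named besides the 6 were, per list, at most 6 genes past the threshold in OB-control against N-control with the largest differences, or the 3 of highest signal, and the 3 nearest profiles per gene. Alternatives were a filter on signal, further normalization, other variance priors, array weights, fewer arrays, an acinar covariate, a replicate block, an unmoderated test per gene and each array left out. The fit was tested on simulated data. Promoters came from a RefSeq table (GRCm38.p6) and were aligned with Biopython 1.88. Version 1.17.8 of the data.table package read the files, and matplotlib 3.10.9 under Python 3.11.15 drew the figures.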

Additional observations from a re-analysis of the deposited data

How the results depend on the processing

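The differences of the 6 genes kept their direction under all 18 alternatives. Of the calls between OB-TUDCA and OB-control mice, Cyp2a22 was lost in 10 of these, as described for single arrays, and also with only the arrays compared (adjusted p 0.116 in limma), with the pancreatic acinar mean as covariate (0.0540) and in the unmoderated test (0.394). So 0 of the 6 genes passed in those, and 0 to 1 with an array left out. The genes called between OB-TUDCA and OB-control mice were 60, against 131 without the third of genes of lowest signal, 97 after a further quantile normalization, 0 with only the arrays compared, 0 with the covariate, 0 in the unmoderated test and 0 to 135 with an array left out.

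Between OB-control and N-control mice 189 genes passed, against 358 with array weights, 65 with only the arrays compared, 71 with the covariate, 1 in the unmoderated test and 60 to 266 with an array left out. Male-biased genes that fell were 14, against 8 with the covariate, 0 in the unmoderated test and 8 to 14 with an array left out. Female-biased genes that rose were 9, against 2 with only the arrays compared, 5 with the covariate, 0 in the unmoderated test and 3 to 7 with an array left out. Between OB-TUDCA and N-control mice 646 genes passed, against 345 with only the arrays compared, 320 with the covariate, 0 in the unmoderated test and 193 to 788 with an array left out. There, male-biased genes that fell were 16, against 0 in the unmoderated test and 9 to 17 with an array left out, and female-biased genes that rose were 12, against 7 with the covariate, 0 in the unmoderated test and 6 to 12 with an array left out. The unmoderated test has no shared variance, and the covariate and the smaller fits leave fewer degrees of freedom. Whether these account for the changed counts was not tested, and leaving out an array raised some counts and lowered others. Elovl5, at 0.20 in OB-control against N-control mice, ranged from −0.11 to 0.67 with an array left out, negative without OB-control replicate 3, and the cause was not tested.

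Deviations of same-numbered arrays correlated at −0.08 to 0.21 over 9 pairs, against −0.30 to 0.23 over other pairs. The replicate numbers were taken to number the mice only, and whether they mark anything shared was not tested further. With the replicate block, 1 of the 6 genes and 60 genes in all passed between OB-TUDCA and OB-control mice, and 189 genes, 12 male-biased lower and 8 female-biased higher, between OB-control and N-control mice. Between OB-TUDCA and N-control mice 871 genes passed with the block, against 646 without it. It changed no call of the 6 genes, but Mup21, Sult3a1, Hnf4a and Cyp2a12 no longer passed with it. For other named genes between OB-control and N-control mice, 471 of 521 values under the alternatives kept their direction and their side of the threshold, 45 no longer passed, 4 newly passed and 1 turned. Sult3a1 is among the third of genes of lowest signal and has no value without them. Each of the 6 genes has 1 probe set, so taking probe sets on their own gave no other value.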
